A study of Zea mays with 4 samples.

Results

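Lone peaks are the entries of one anti-ZmbZIP22 peak list that have no counterpart in the list of the other replicate. The lists come from a chromatin immunoprecipitation followed by sequencing (ChIP-seq) of wild-type maize endosperm collected 15 days after pollination. ChIP-seq recovers DNA crosslinked to a protein, and a peak is a stretch of the genome where the recovered fragments pile up over the local background. Each of 2 replicates had an anti-ZmbZIP22 library, made with an antibody that the submitters produced, and a control library made with purchased nonspecific immunoglobulin (IgG), 4 in all. All 4 share the wildtype genotype, the Endosperm tissue and the age, and whether the replicates are separate plants is not given in the sources used here.

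A row of a peak table was taken as lone when the other table had no summit, the base of greatest height, within 500 bp on the same chromosome. Each interval was then counted once. This gave 596 lone intervals of 3642 distinct intervals in all, or 16.4% (exact 95% interval 15.2% to 17.6%, counting error only). Of these, 371 of 1867 were in the replicate 1 list and 225 of 1775 in the replicate 2 list, or 19.9% and 12.7%. The remaining 3046 intervals, called partnered here, had such a summit. Partnered rows numbered 1550 in each list. A partnered site is counted from both lists and a lone one from 1, so the shares are of list entries and not of sites. The members were thus chosen by the summit positions in both lists, and each value below from these lists is therefore a description and carries no test. Each replicate has 1 list, and peaks are not replicates of a condition. The lone intervals of both lists had backgrounds with one lowest value and one coarse step, which differed from those fitted to the partnered intervals of either list, and whether they came from the same peak call as the partnered intervals of their list was not tested. Differences in fold enrichment, pileup and length between lone and partnered intervals therefore describe the lists as deposited.

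Basic leucine zipper (bZIP) proteins such as ZmbZIP22 bind DNA as dimers through a basic region, and plant members commonly recognise sites built around an ACGT core. In the maize endosperm, which stores starch and protein for the germinating seed, bZIP factors are known for acting on the promoters of zein genes, which encode the storage proteins, and ZmbZIP22 is known for a gamma-zein gene. Neither a sequence nor a gene was assigned to the intervals, because the genome build of the positions is not given in the sources used here. Positions are printed as deposited.

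No summit of either list lay between 497 and 4278 bp from the other. The nearest lone summits lay 4278 bp from the other list, and the farthest partnered summit lay 497 bp from it. The nearest were a pair on chromosome 6, chr6:140072066-140072587 in replicate 1 and chr6:140076393-140076872 in replicate 2. Their fold enrichments, the ratio of the summit pileup to the local background given by the authors' peak caller, were 33.2 and 26.2. The second nearest of the replicate 2 list was chr1:157245178-157245772, 10186 bp away with 27.8-fold enrichment. That of the replicate 1 list was chr10:106067801-106068616, 11139 bp away with 180.1-fold enrichment. Only 2 of the 596 lone intervals were within 10000 bp of a summit of the other list, and 84 were within 100000 bp. The median distance was 604812 bp for the replicate 1 list and 484191 bp for the replicate 2 list. For 210 of the 596, the nearest summit of the other list was itself lone. Lone intervals were 19.9% of the distinct intervals of the replicate 1 list and 12.7% of those of replicate 2. Partnered intervals were concentrated on some chromosomes, so these shares are no expected value for that count.

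**Figure D1:**
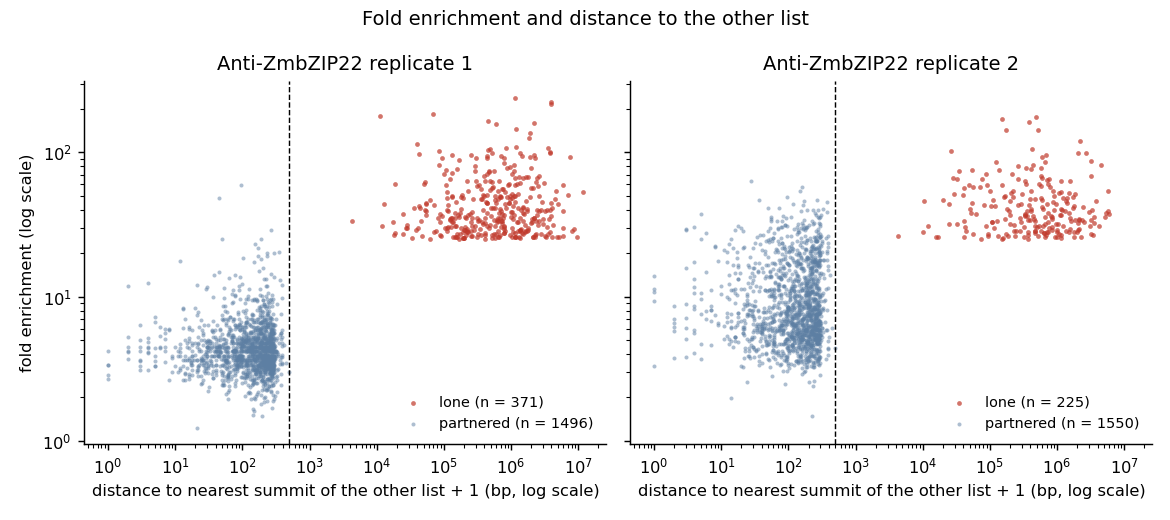
Fold enrichment (log scale) of each distinct interval against the distance from its summit to the nearest summit of the other list (bp plus 1, log scale), for lone (red) and partnered (blue) intervals of each replicate; the dashed line marks 500 bp. No interval lies between 497 and 4278 bp, and all lone intervals lie above 25-fold.

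All lone intervals were strongly enriched, as the deposited ratio gives it. The lowest fold enrichment was 25.02 in both lists. In replicate 1 the quartiles were 29.7 and 54.6 around a median of 37.8, with a highest value of 240.1. In replicate 2 they were 30.4 and 52.5 around a median of 37.9, with a highest value of 177. Of the 596, 152 lay between 25-fold and 30-fold, 175 between 30-fold and 40-fold, 152 between 40-fold and 60-fold, 90 between 60-fold and 100-fold, and 27 at 100-fold or above. The values above 100 were 19 in replicate 1 and 8 in replicate 2, or 5.12% and 3.56% of the lone intervals of each list. The partnered intervals had median fold enrichments of 4.18 in replicate 1 and 7.62 in replicate 2, and 4 of 1496 and 101 of 1550 reached 25-fold.

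The lower edge was the same value in both lists, held by one interval of each. They were chr7:4545402-4545789 in replicate 1 and chr1:6227330-6227795 in replicate 2. Both had a pileup of 69 fragments. Just above them were chr7:141862840-141863682 in replicate 1 at 25.09-fold with a pileup of 80 and chr8:158732280-158732755 in replicate 2 at 25.03-fold with a pileup of 70. The lowest pileups were also close, 46 in replicate 1 and 47 in replicate 2. With a lowest background and a lowest ratio, a lowest possible pileup follows. A lower edge in the ratio, and none at 25-fold among partnered intervals, is a property of the deposited lists whose origin was not tested.

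The most enriched interval of all was chr2:199110116-199110859 in replicate 1, at 240.1-fold with a pileup of 455 over 744 bp. Next in replicate 1 came chr8:74837731-74838513 at 223-fold with a pileup of 415, and chr7:64601632-64602322 at 217-fold with a pileup of 439. A second interval of chromosome 2, chr2:164357561-164358351, had 186-fold enrichment with a pileup of 346. After these came the chromosome 10 interval at 106067801, whose pileup was 613. These top intervals lay on 4 chromosomes, and their summits sat between 340 and 401 bases from the interval start.

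In replicate 2, chr3:28612207-28613356 led at 177-fold with a pileup of 329. It was followed by chr1:90560204-90561061 at 171-fold with a pileup of 339 and chr1:286684682-286685425 at 163-fold with a pileup of 470. On chromosome 5, chr5:73182748-73183486 reached 143.3-fold and chr5:204227229-204228531 reached 142.6-fold, with pileups of 358 and 398. The last of these was 1303 bp long with its summit at base 960.

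Height spread more widely than enrichment. Pileups of replicate 1 lay between 46 and 5147 fragments, with a median of 101 and quartiles of 73 and 163. Those of replicate 2 lay between 47 and 670, with a median of 103 and quartiles of 70 and 145. A pileup of 500 or more was reached by 7 lone intervals of replicate 1 and 1 of replicate 2, against 0 of the 3046 partnered intervals. Every lone pileup was a whole number, 371 of 371 and 225 of 225. Partnered pileups were whole in 1 of 1496 intervals of replicate 1 and in 1550 of 1550 of replicate 2. Partnered pileups of replicate 1 are thus not plain fragment counts, and their scale may differ from that of lone pileups.

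The highest pileups were not the highest enrichments. In replicate 1 the tallest, chr2:78510496-78511303, had 5147 fragments and 81.3-fold enrichment. Its neighbour chr2:78508857-78509695, whose summit is 1589 bp away, was the second tallest with 2477 fragments and only 34.8-fold enrichment. These 2 neighbours also had the highest local backgrounds of all lone intervals, 62.3 and 70.1 fragments. The third tallest of replicate 1 was chr9:73920792-73921570, with 2011 fragments, 159-fold enrichment and a background of 11.7. In replicate 2 the tallest was chr6:169290013-169290823, with 670 fragments, 81.9-fold enrichment and a background of 7.19. The chromosome 1 interval at 286684682 was next with 470, followed by chr2:214726075-214726820 with 469 fragments, 85.5-fold enrichment and a background of 4.49.

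Fold enrichment followed pileup along a small set of lines. The local background of each interval was recovered from the deposited values as (pileup + 1) divided by fold enrichment, less 1, since the caller adds 1 to both. It had a median of 1.51 fragments in lone intervals of replicate 1 and 1.42 in those of replicate 2. In partnered intervals, where the scale may differ, it was 3.74 and 2.94. In 184 of the 596 lone intervals, or 30.9%, it was below 1 fragment. Rank correlation of fold enrichment with pileup was 0.772 over 371 lone intervals of replicate 1 and 0.743 over 225 of replicate 2. Among partnered intervals it was 0.116 in replicate 1 (n = 1496) and 0.812 in replicate 2 (n = 1550). The pileup enters the ratio, so these correlations describe how the values were built, across the peaks of 1 list each.

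Intervals of equal height showed what the background contributed. A pileup of 94 was shared by 8 lone intervals, and their fold enrichment ran from 25.7 to 50.9 as the background ran from 2.70 down to 0.868. A pileup of 112 was likewise found in 8, 4 from each list, with fold enrichments between 30.5 and 60.5. At a pileup of 47, close to the lowest, 9 intervals spanned only 25.2-fold to 25.7-fold. There the ratio at the lowest background lies just above the lower edge, so a wide span was not possible. In 4 groups of 149 intervals ordered by pileup, the median fold enrichment was 28.6 in the lowest group (46 to 72 fragments), then 34.3, 47.0 and 67.2 in the highest (158 to 5147). The median background was 0.903, 1.51, 1.80 and 2.70 fragments in the same groups. Over the 596 lone intervals, the rank correlation with background was −0.00299 for fold enrichment and 0.574 for pileup. No lone interval was below 25.02-fold, so a higher background could occur only with a higher pileup. The rise of background with pileup was therefore in part set by that edge.

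**Figure D2:**
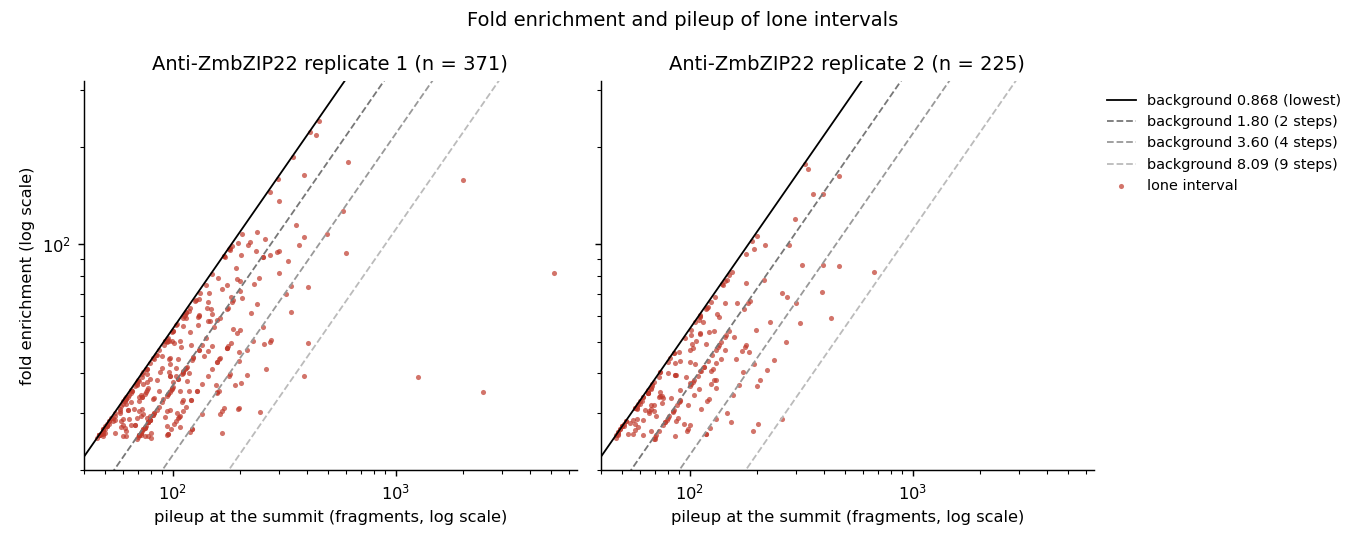
Fold enrichment against pileup (fragments), both on log scales, for the lone intervals of each replicate; the solid line is the ratio at the lowest background (0.868) and the dashed lines at 2, 4 and 9 background steps. No interval lies above the solid line, and the tallest interval of replicate 1 (5147 fragments, 81.3-fold) lies far to its right.

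The recovered backgrounds stood on levels with the same lowest value and the same steps in both lists. To 4 decimals there were 56 distinct values in replicate 1 and 44 in replicate 2, of which 34 occurred in both. In replicate 1, 50 of 371 lone intervals stood at the lowest value, 0.868, and in replicate 2, 32 of 225 did, or 13.5% and 14.2%. A further 133 and 74 stood at a whole multiple of 0.899 (within 0.0005). The fitted step was 0.898962 in both lists. The most populated multiple was 2 steps, or 1.80 fragments, with 47 intervals of replicate 1 and 29 of replicate 2. Each of the remaining 188 and 119 stood at a whole multiple of a finer step, 0.0301, fitted as 0.0301152 in both lists. That tolerance covers 0.111% of the line for the coarse step and 3.32% for the fine step. Of the 307 intervals on the fine step, 180 were at a multiple of 10 fine steps. No lone interval fell off these levels. As background, the caller takes the largest of a genome-wide mean and averages over windows of several widths in a control that it may scale.

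Partnered intervals began at other levels. Their lowest backgrounds were 2.17 in replicate 1 and 1.35 in replicate 2, and their fitted coarse steps were 1 and 0.979 (within 0.005). The lowest level and the coarse step together held 78.7% of the partnered intervals of replicate 1 and 45.0% of those of replicate 2, and left 319 and 852 off. No finer step was fitted to them, so these shares do not stand against the full count of lone intervals. Of the 225 lone intervals of replicate 2, 208 had a background, to 4 decimals, that also occurred among lone intervals of replicate 1, and 0 had one that occurred among partnered intervals of replicate 2. Of the 371 lone intervals of replicate 1, 333 had a value also found among lone intervals of replicate 2. Which library a lone interval came from cannot be told apart from these values, so a replicate number says here only which table holds the interval.

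**Figure D3:**
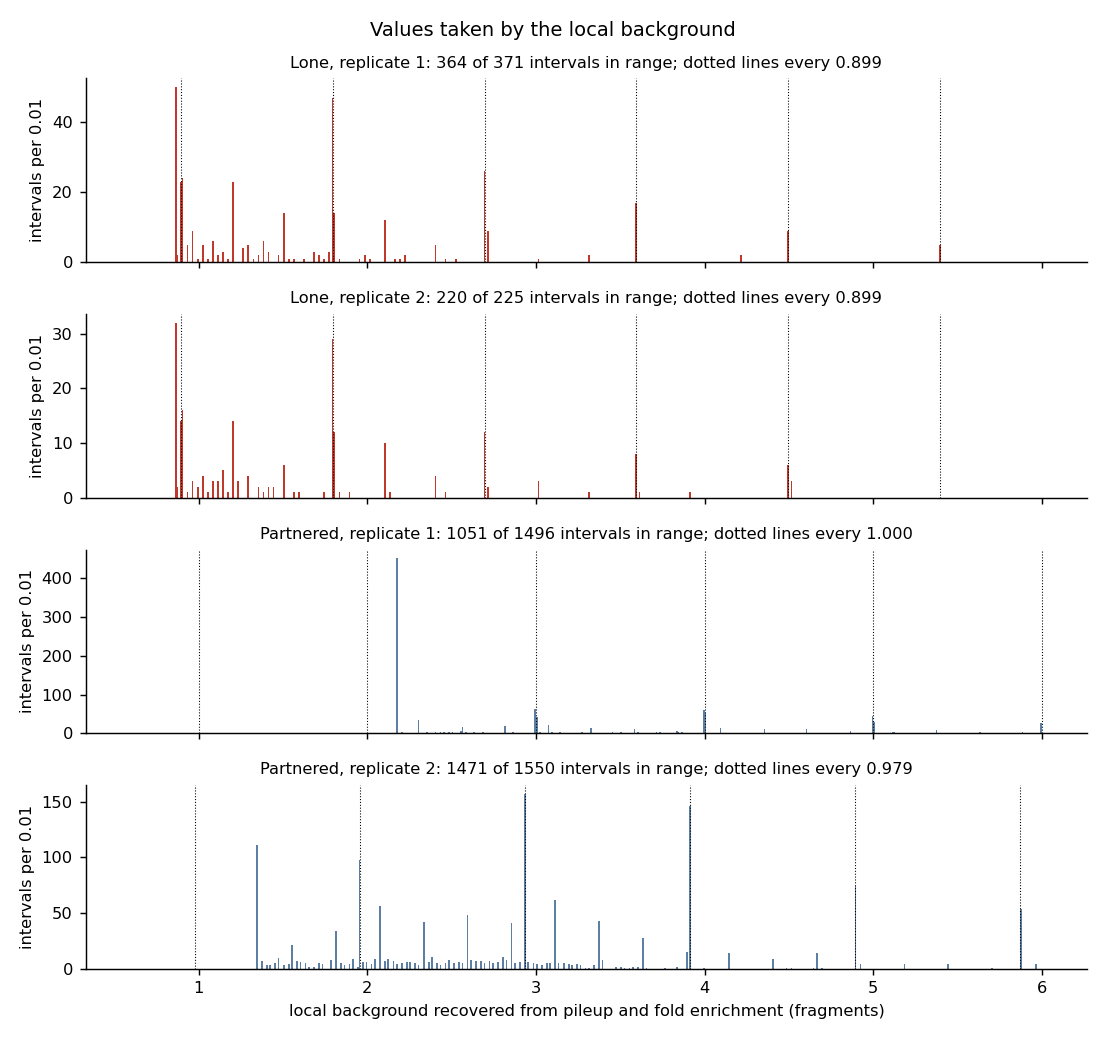
Number of intervals at each recovered local background (fragments, bins of 0.01, from 0.6 to 6), for lone intervals (red, upper panels) and partnered intervals (blue, lower panels) of each replicate; dotted lines mark whole multiples of the coarse step. The lone panels share the levels 0.868, 0.899 and 1.80, and the partnered panels begin at 2.17 and 1.35.

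The extremes of background were few. Only 4 lone intervals were above 10 fragments, and apart from the chromosome 2 pair the highest was 31.5. In replicate 2 the highest were chr4:170885097-170885803, with 8.09 fragments, a pileup of 261 and 28.8-fold enrichment, and the chromosome 6 interval at 169290013. At the lowest level, 0.868, the strongest intervals were those at 74837731 on chromosome 8 and 164357561 on chromosome 2 in replicate 1. In replicate 2 they were the chromosome 3 interval at 28612207 and chr6:78776094-78776746, which had a pileup of 190 and 102.2-fold enrichment. Intervals at the lowest level had a median pileup of 65 and a median length of 527 bp, while those on the coarse step had 131 and 615 bp. The lower edge in fold enrichment admits a higher background only with a higher pileup, so part of this difference in pileup was set by it.

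The deposited significance followed from pileup and background. The upper tail of a Poisson distribution with the recovered background as its mean, above the pileup, gave the deposited −log10 p of lone intervals to within 0.00497 in replicate 1 and 0.000474 in replicate 2. The −log10 p lay between 62.7 and 7662 for replicate 1, with a median of 141.8. For replicate 2 it lay between 63.6 and 1035, with a median of 142.1. Its rank correlation with pileup was 0.980 over the 596 lone intervals, and with fold enrichment 0.870. Partnered intervals had median −log10 p values of 8.81 in replicate 1 and 19.03 in replicate 2.

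Lone intervals were longer than partnered ones, and none was at a minimum length shared by many. The median was 572 bp for replicate 1 (quartiles 505 and 658.5) and 582 bp for replicate 2 (quartiles 513 and 669). Partnered intervals had medians of 309 and 373 bp. Only 6 of the 596 lone intervals were under 400 bp, against 2127 of the 3046 partnered ones. The shortest lone intervals were chr1:10960565-10960927 (363 bp) and chr5:134532076-134532457 (382 bp) in replicate 1, and chr6:123787384-123787728 (345 bp) and chr7:173465542-173465910 (369 bp) in replicate 2. The shortest length of each list was held by 1 lone interval, whereas 161 partnered intervals of replicate 1 had exactly 256 bp and 98 of replicate 2 exactly 265 bp, the shortest of each list.

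At the other end, 26 lone intervals were at least 1000 bp long, 13 in each list. The longest, chr3:205370326-205372190 in replicate 1, had 1865 bp, a pileup of 150 and 80.8-fold enrichment, with its summit at base 328. The second, chr6:98580139-98581840, had 1702 bp and 37.97-fold enrichment. In replicate 2 the longest were chr5:157483850-157485299 (1450 bp, 32.5-fold) and chr1:65352016-65353424 (1409 bp, 39.4-fold). In all 4 the summit lay toward one end of the interval. Such an offset was rare: the summit lay between 40% and 60% of the way along the interval in 523 of 596, or 87.8% (exact 95% interval 84.8% to 90.3%), and in the first or last 20% in 5. Partnered summits lay between 40% and 60% in 70.2% of replicate 1 intervals and 90.1% of replicate 2 intervals. Length had a rank correlation of 0.627 with pileup and 0.493 with fold enrichment over the 596 lone intervals, and the median length in the 4 pileup groups was 485, 536, 599 and 667 bp, low to high.

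**Figure D4:**
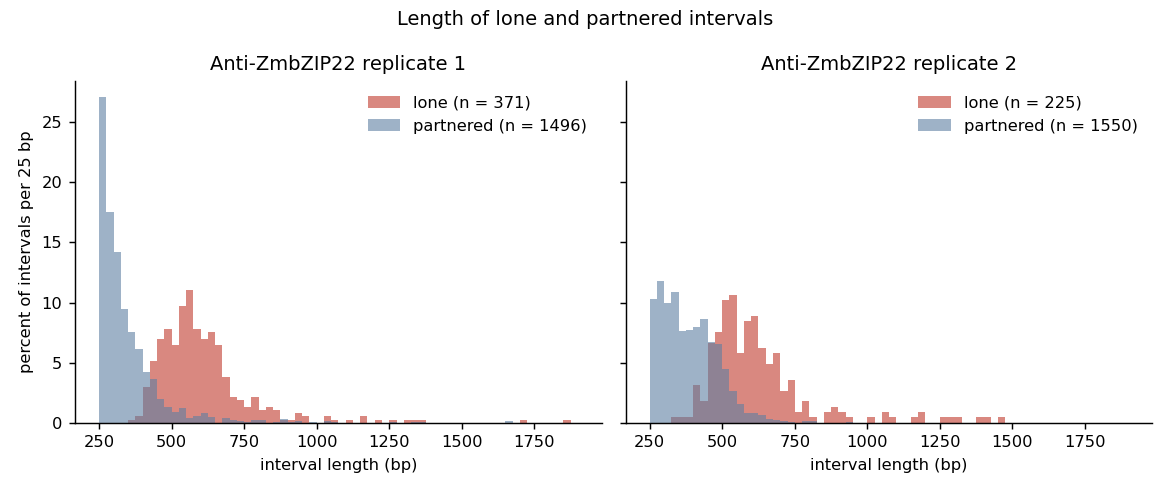
Percent of lone (red) and partnered (blue) intervals of each replicate in bins of 25 bp of interval length. The lone medians are 572 and 582 bp, and the partnered intervals gather toward the shortest lengths, with medians of 309 and 373 bp.

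A lone interval almost always had a single summit. Of the 596, 595 had 1 summit, and the exception was chr8:69107796-69109061 in replicate 2, 1266 bp long. Its summits were 551 bp apart. The first had a pileup of 199 and 54.1-fold enrichment and the second a pileup of 105 and 26.4-fold enrichment. In replicate 1, 0 of 371 lone intervals had more than 1 summit, against 47 of 1496 partnered intervals, with up to 4. In replicate 2 it was 1 of 225 lone intervals against 0 of 1550 partnered ones.

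Rows that repeated another in every column but the name were found among lone rows and not among partnered ones. Of 411 lone rows in replicate 1, 40 repeated another row, or 9.73% (exact 95% interval 7.04% to 13.0%), and of 241 in replicate 2, 15 did, or 6.22% (3.53% to 10.1%). Among partnered rows the count was 0 of 3100 (exact 95% interval up to 0.119%, counting error only). The repeats concerned 37 intervals of replicate 1 and 15 of replicate 2. In replicate 1, 34 intervals were listed 2 times and 3 were listed 3 times. The last were chr4:169580556-169581138 (63.6-fold), chr6:98236688-98237438 (144.8-fold) and chr6:117979958-117980568 (56.2-fold). Each copy carried its own running number in the name column. Repeated intervals had a median fold enrichment of 37.2, against 37.9 for those listed once, and lay between 25.4-fold and 217-fold.

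Lone intervals were sparse, and none overlapped another lone interval. With both lists combined, neighbouring lone summits on a chromosome were a median of 2005180 bp apart (quartiles 707003 and 4210635, 586 pairs). Within a list the median was 3143455 bp for replicate 1 and 4827616 bp for replicate 2, against 355538 and 322252 bp between neighbouring partnered summits. Only 7 pairs were within 10000 bp and 33 within 100000 bp. In 319 of the 586 neighbouring pairs both intervals were from the same list, or 54.4%. Over all pairs of lone intervals of a chromosome, neighbours or not, that share was 52.4%.

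The closest pair was the chromosome 2 pair with the tallest pileups, and the chromosome 6 pair across lists came second. After them was a pair of replicate 2, chr4:93238980-93239854 and chr4:93244271-93244891, 5246 bp apart with 27.5-fold and 27.4-fold enrichment. In replicate 1, chr5:202874170-202874620 and chr5:202881236-202881938 were 7216 bp apart, and chr4:5540403-5540899 and chr4:5548817-5549497 were 8484 bp apart. The fold enrichments were 26.4 and 95.8 in the chromosome 5 pair, and 30.7 and 45.3 in the chromosome 4 pair that is 8484 bp apart.

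The distance from lone intervals to partnered ones of the same list was measured as well. The median distance to the nearest partnered summit of the same list was 967021 bp for replicate 1 and 937404 bp for replicate 2. The smallest distances were 11274 and 9963 bp.

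By chromosome, the density of lone intervals varied little. It ran from 2.40 per 10 Mb on chromosome 8 to 3.29 on chromosome 1, taking each chromosome to end at the last interval of either list. Partnered intervals of both lists together ran from 4.29 per 10 Mb on chromosome 4 to 36.3 on chromosome 1. Lone intervals were therefore 8.30% of the distinct intervals of chromosome 1 but 39.1% of those of chromosome 4, with partnered sites counted from both lists. The replicate 1 list held between 58.1% of the lone intervals (chromosome 3) and 67.4% (chromosome 9). Median fold enrichment of lone intervals by chromosome stayed between 35.3 (chromosome 3) and 40.1 (chromosome 9).

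Along the chromosomes, lone intervals were most frequent toward the far end and least frequent in a stretch short of the middle. Each chromosome was divided into 10 equal bins, and the counts of the 10 chromosomes were added. The end was taken at the last interval of either list, which was lone on 7 of 10 chromosomes. There a lone interval fixed the bins and always fell in bin 10, so the shares in bin 10 depend on this choice. Bin 10 held 133 of the 596 lone intervals, or 22.3% (exact 95% interval 19.0% to 25.9%), and bin 9 held 83, or 13.9%. The lists differed in bin 9, with 16.2% of the lone intervals of replicate 1 and 10.2% of those of replicate 2. In replicate 2, bins 2 and 8 held more than bin 9, 12.0% each. Bins 1 and 2 held 62 and 68. Bins 3 to 6 held 28, 37, 24 and 44, together 133 or 22.3%. Bin 5 held the fewest of replicate 1, 14, and shared the fewest of replicate 2, 10, with bin 3. Bins 1, 2, 9 and 10 together held 58.2% of lone intervals of replicate 1 and 57.8% of those of replicate 2. Of partnered intervals, 44.9% lay in those outer bins and 38.7% in bins 3 to 6. Chromosome 1 held 35.9% of the partnered intervals and 16.6% of the lone ones. The difference in these summed shares thus mixes position with how each group is spread over the chromosomes. The outer share of lone intervals was between 46.97% on chromosome 4 and 66.0% on chromosome 7. Strength changed little with position: the median fold enrichment by bin was between 34.3 and 42.1.

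**Figure D5:**
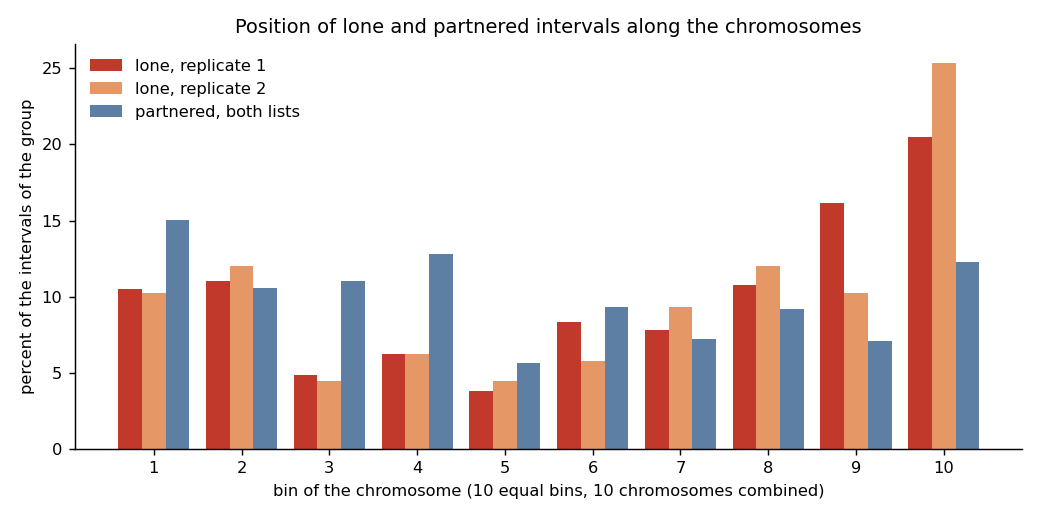
Percent of lone intervals of replicate 1 (red), of lone intervals of replicate 2 (orange) and of partnered intervals of both lists (blue) in each of 10 equal bins of the chromosome, with 10 chromosomes combined and each taken to end at its last interval. Bin 10 holds 20.5% and 25.3% of the lone intervals and 12.2% of the partnered ones. Lone and partnered intervals are spread differently over the chromosomes.

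On 7 of 10 chromosomes the last interval was lone, and 24 lone intervals lay beyond the last partnered one. Chromosome 6 had 7 of these and chromosomes 4 and 9 had 6 each. On chromosome 4 the last lone interval ended 8645831 bp past the last partnered one. At the start only chromosomes 3 and 7 began with a lone interval. The first lone interval of chromosome 2 began at 24292141, although partnered intervals began at 442494 there, and that of chromosome 9 began at 18394646. In windows of 10 Mb the median was 2 lone intervals, 23 of 209 windows had none, and the most was 10. The windows with 10 were the first 10 Mb of chromosome 1, and 200 to 210 Mb on chromosome 5. The widest stretch between neighbouring lone summits was 38376865 bp on chromosome 5, between chr5:85293324-85293871 and chr5:123670187-123670760. The next was 30082343 bp on chromosome 1, between chr1:120372703-120373445 and chr1:150455108-150455879.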

How the data were processed

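Per the submitters' processing notes, Bowtie2 (version not given) and MACS2 2.0.10 were used. The build, the threshold and the control of each call are not stated in the labels or the files. For each replicate of the immunoprecipitation a table of peaks and a BED file with the same positions and scores were used. Pileup is the signal at the summit as the authors deposited it, in fragments or in fragments that the caller has scaled. Pileups and backgrounds of lone and partnered intervals may therefore differ in scale, which was not tested. The deposited fold enrichment is a ratio of pileup to local background. The −log10 p and −log10 q values are deposited too, under broken headings, and were identified by the usual MACS2 column order. Library depth is unknown here, and no IgG values were analysed. The members and all settings, including bins, windows and background steps, were chosen with earlier results of these data known.

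Distinct intervals kept the row with the highest pileup. Regions were named by rank in fold enrichment (5 highest and 2 lowest per list), pileup (3), length (2 longest, 2 shortest), background (2 highest, 2 lowest, ties by fold enrichment) and distance to the other list (2), with the 5 closest pairs and the intervals with several summits or most repeats. The widest gaps and the chromosome extremes were picked after seeing their values. The background was planned with its pseudocount of 1 left in and is printed without it. Motif and gene comparisons were planned and not run. Python 3.11.15, numpy 2.4.6, pandas 2.3.3, scipy 1.17.1 and matplotlib 3.10.9 were used, and the pairing rule and the step fit were tested on simulated data. Alternatives were partner distances of 200 and 5000 bp, overlap in place of distance, a stricter list (upper 50% by −log10 q), each list alone, every row, and no pseudocount.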

Additional observations from a re-analysis of the deposited data

How the results depend on the processing

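Of 77 values recomputed for 11 results, 51 stayed within a set range. The range was the counting interval for shares and a factor of 1.5 for the number of intervals. For other results it was the standard deviation of the values from each list alone. With partners sought within 5000 bp, or with every row counted, each result stayed within that range. The 5000 bp setting could move little, since no summit lay between 497 and 4278 bp from the other list. It kept 594 of the 596 intervals. Partners within 200 bp gave 1644 intervals, or 45.1% of all, with a median fold enrichment of 9.54, a lowest of 1.49, a median pileup of 50.0, a median length of 426 bp, a median background of 2.41, 29.1% on chromosome 1, a median spacing of 333552 bp and 3.23% repeated rows, since intervals with a summit 200 to 500 bp away then count as lone. With lone defined by the absence of overlap, 19.5% were lone, with a median fold enrichment of 34.3, a lowest of 2.19, a median pileup of 90.5, a median length of 549 bp, a median background of 1.80 and a rank correlation of fold enrichment with pileup of 0.843. In the upper 50% of each list, which holds every lone interval, 32.8% were lone. With no pseudocount the median background was 2.48.

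With either list alone, the number of intervals was 225 to 371, the share 12.7% to 19.9%, the median background 1.42 to 1.51, the median spacing 3143455 to 4827616 bp and repeated rows 6.22% to 9.73%. No paired analysis was possible because only the anti-ZmbZIP22 arm has values in these lists. With depth unknown, the counting error of a single height was not estimated. The motif and gene alternatives were not run.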
